A study of Mus musculus with 15 samples.

Results

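The enzymes that burn fatty acids and handle ketone bodies were followed as 33 genes among the 54532 genes measured in 15 mouse kidneys. The genes were chosen by name for their known role in the pathway, and each was matched by its Ensembl identifier to 1 row of the table. By the compartment in which the protein works, 23 were counted as mitochondrial, 6 as peroxisomal and 4 as mixed or other (Acsl1, Crat, Eci2 and Acot1). One kidney came from each of 5 C57BL/6 mice per group, which the methods give as male and aged 8 weeks at the start. The C group ate a normal diet. In the M group, the chronic kidney disease (CKD) model, 0.25% adenine was fed for 4 weeks and standard diet followed until week 8. The AA group was fed adenine in the same way and was given asiatic acid, a triterpenoid of Centella asiatica, by gavage at 30 mg/kg daily for 8 weeks, while C and M mice were given the vehicle. The paper reports tubular injury in the adenine-fed mice, so M vs. C compares an injured with a healthy kidney, and no healthy mice given asiatic acid were sequenced.

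Fatty acid oxidation is a main source of ATP in the proximal tubule. A fatty acid is first coupled to coenzyme A, is carried into the mitochondrion as a carnitine ester, and is then shortened in repeated cycles of dehydrogenation, hydration, a further oxidation and thiolysis. The electrons of the dehydrogenation step leave through the electron transfer flavoprotein. Very long and branched chains are shortened in peroxisomes by a parallel set of enzymes, and acetyl-CoA can leave the liver, and to a lesser degree the kidney, as ketone bodies. PPARA, a fatty acid receptor that binds DNA with RXR, is the best known inducer of these genes.

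Values are in FPKM, fragments per kilobase of gene and scaled by a fragment total of the library. Some libraries stood apart. M mice 1 to 3 had 10068 to 12222 genes above 0 against at least 18695 in any other library, and M mouse 2 listed 5 of the 33 enzymes at 0 (Acsm1, Slc25a20, Eci1, Pdk4 and Bdh1). Xist, the RNA of the inactive X chromosome of female cells, was at 2.55 and 1.45 FPKM in M mice 2 and 3 and at no more than 0.119 in the other libraries, while the Y-linked Ddx3y was at 3.26 and 3.87 FPKM in these mice and at 1.63 to 8.04 over all 15 libraries. C mice 1 and 3 had 255 and 437 FPKM of Aqp2, the water channel of the collecting duct, against 20.6 to 29.6 in the other C mice. Mitochondrial genes held 53.0 to 62.5% of the reads in C mice, 64.0 to 86.8% in M mice and 69.3 to 87.3% in AA mice, which left 6943441 to 13568507, 2077294 to 7131220 and 2219746 to 4259543 recovered reads outside them. As a fraction of the total that scales FPKM, these outside reads were 0.204 to 0.313 in C mice, 0.199 to 0.228 in M mice and 0.207 to 0.246 in AA mice. That total was thus not the sum of all recovered reads, and how it was formed was not settled. The 15 fixed markers of the proximal tubule summed to 3150 to 12941 FPKM in C mice, to 94.7 to 552 in M mice and to 178 to 585 in AA mice.

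Most of the 33 enzymes were lower after adenine. The difference passed the test for few of them in M vs. C and for more of them in AA vs. C, where more of all genes also passed (1.38% and 19.8%). The median log2 fold change of the enzymes was nevertheless lower in M vs. C (-0.88) than in AA vs. C (-0.60). Their summed level was 219, 581, 214, 381 and 495 FPKM in C mice 1 to 5, 265, 117, 131, 132 and 109 in the M mice and 149, 167, 162, 173 and 173 in the AA mice. All AA mice were below the lowest C mouse, and M mouse 1 alone among the treated mice was inside the C range. C mice 1 and 3, with the high Aqp2, had the lowest sums of their group. The summed proximal tubule markers were also lower in all M and AA mice than in any C mouse (medians 339, 486 and 6220 FPKM), by a wider gap than the enzymes, as the plot of both sums shows. Among the AA mice, mouse 4 had the lowest marker sum (178) and, with mouse 5, the highest enzyme sum (173). Collecting duct markers were lower as well, with medians of 80.9, 11.9 and 19.4 FPKM in C, M and AA mice. Most of the proximal tubule sum was Kap in every library, at 2779 to 10538 FPKM in C mice, 81.2 to 500 in M mice and 126 to 486 in AA mice. Of the 15 markers 11 were called lower in AA vs. C, and the rest were not called. In whole kidney, fewer cells of a type and less RNA per cell cannot be told apart, and the part of the tubule markers in the enzyme values was not tested.

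**Figure D1:**
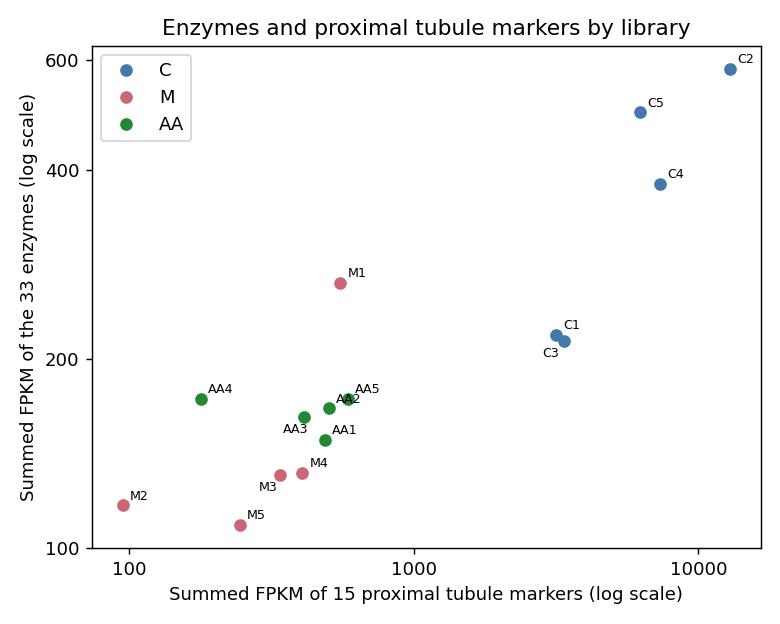
Summed FPKM of the 33 enzymes (vertical, log scale) against the summed FPKM of 15 proximal tubule markers (horizontal, log scale), with 1 point per library coloured by group. The C libraries lie at 3150 to 12941 FPKM of markers and every M and AA library at or below 585, while the enzyme sums of M mouse 1 (265) and C mice 1 and 3 (219 and 214) come close to each other. Kap holds most of the marker sum in every library.

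In M vs. C, 4 of the 33 enzymes were called and all 4 were lower: Acsm1, Acsm2, Etfb and Acaa1b. A gene was called at an adjusted p of at most 0.05 in limma if the log2 fold change also reached 1 in size, on the log2(FPKM + 1) scale used for all fold changes here, which understates changes of low genes. Of all 21153 genes tested, 1.11% were called lower and 0.269% higher. The log2 fold change was below 0 for 32 of the 33 enzymes and for 67.9% of all genes, with medians of -0.88 and -0.12. In 8 enzymes all M mice lay below all C mice, which held for 3.67% of all genes. Each call rested on single libraries: without C mouse 4, C mouse 5, M mouse 1, M mouse 2 or M mouse 3 no enzyme was called by limma, while 12 to 20 had an unadjusted p under 0.05. Without M mice 2 and 3 together, the libraries with Xist, 0 were called by limma and 13 had an unadjusted p under 0.05, while scaling every library to the same total (TPM) gave 26 calls, all lower, and voom on recovered reads 1. Under TPM 1609 of all genes were called, 1.93% of them higher, and the median of all genes moved to -0.58.

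In AA vs. M, 3 of the 33 enzymes were called: Etfb fell further, and Acot1 and Acsm2 rose. Of all 19798 genes tested, 12.8% were called, 1.07% lower and 11.7% higher, beside 9.09% of the enzymes. The log2 fold change was below 0 for 10 of the 33 enzymes and for 37.7% of all genes, with medians of 0.24 and 0.17. All AA mice lay above all M mice in 3 enzymes (Acsm2, Hadh and Acot1), where 11.9% of all genes did so. They lay below all M mice in 1 enzyme (Etfb), where 1.31% of all genes did so. The median of the enzymes depended on the scaling: it became 0.00 after quantile normalization and -0.27 when each library was centred on its median. In the same scalings the median of all genes moved to -0.10 and -0.35.

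In AA vs. C, 13 of the 33 enzymes (39.4%) were called and all 13 were lower, against 9.61% of all 21898 genes tested. They were Etfb, Acsm1, Acaa1b, Acaa1a, Cpt2, Eci1, Eci2, Acsm2, Acadvl, Crat, Acadl, Acsm3 and Acadm. The log2 fold change was below 0 for 28 of the 33 enzymes and for 43.7% of all genes, with medians of -0.60 and 0.09. All AA mice lay below all C mice in 9 enzymes, where 12.5% of all genes did so. Under TPM 29 enzymes were called lower. In the same scaling 6785 of all 21898 genes were called, 12.7% of these calls higher, and the median of all genes moved to -0.39. The calls of Etfb, Acsm1, Acaa1b, Acaa1a, Cpt2, Eci1 and Eci2 were made again with each of the 10 libraries left out in turn. M vs. C and AA vs. C share the C mice, so that their values are set side by side and not correlated.

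**Figure D2:**
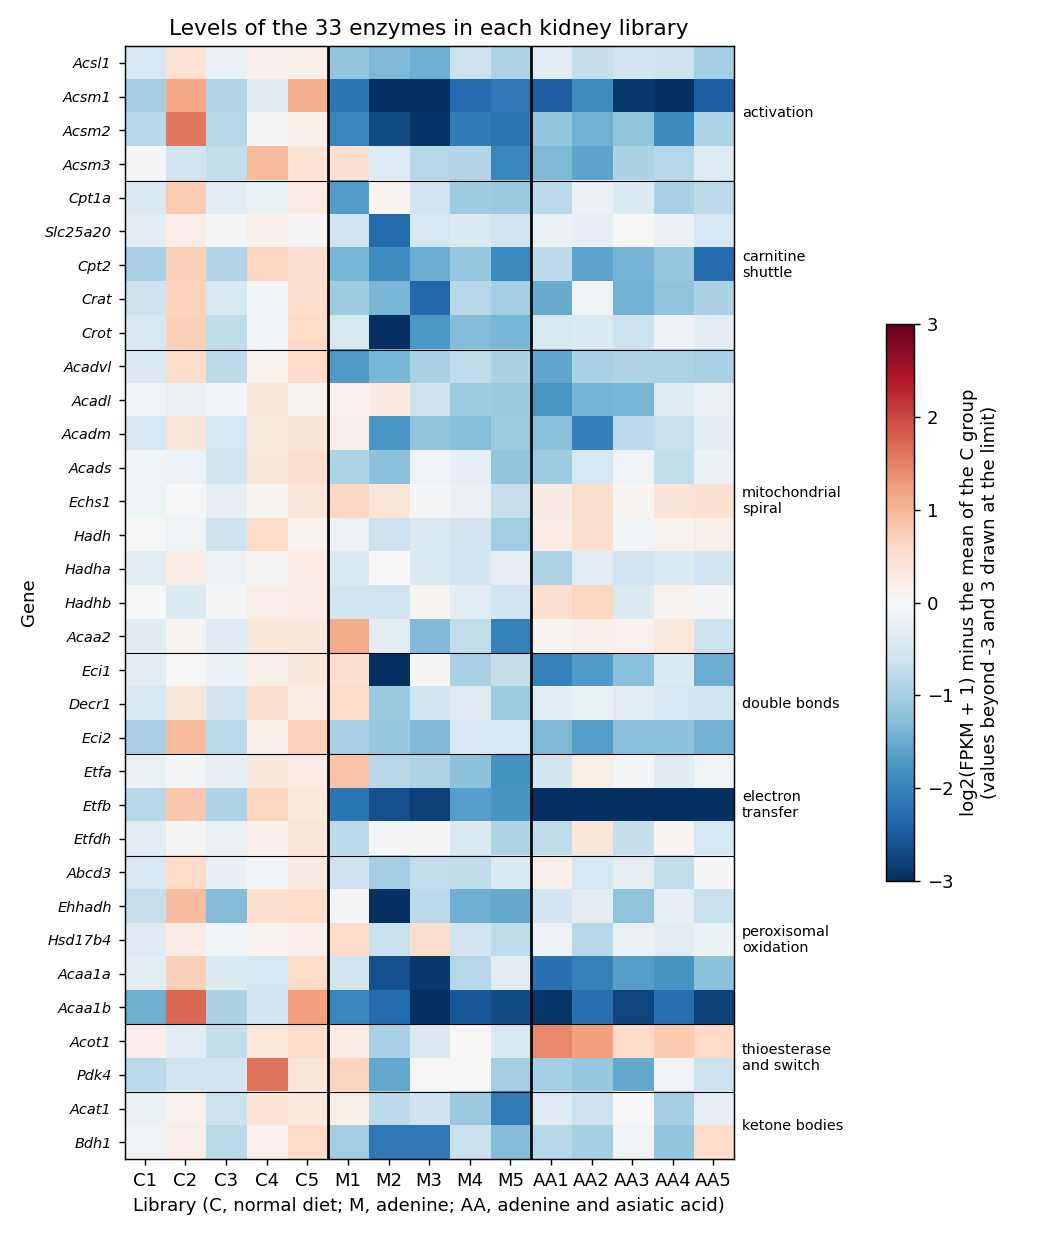
Each row is an enzyme, each column a library, and colour gives log2(FPKM + 1) minus the mean of the C group, with rows ordered by role. Etfb is at the dark end in all 5 AA libraries, Acaa1b and Acsm1 are dark in M and AA, and Acot1 stands above the C mean in all AA libraries.

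**Figure D3:**
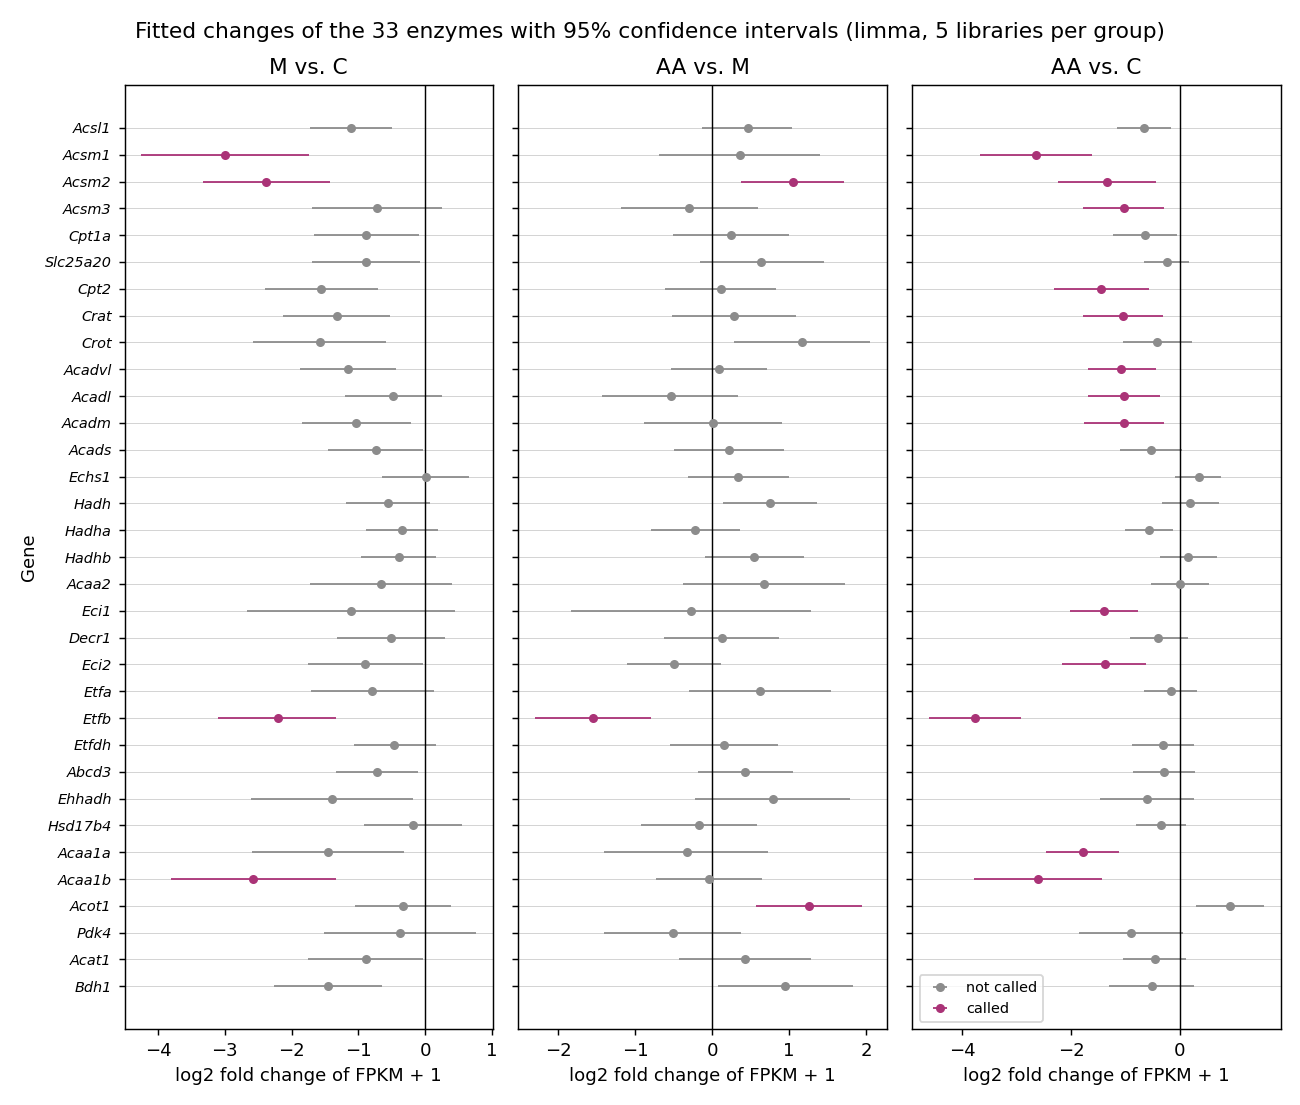
Log2 fold changes of FPKM + 1 (horizontal) with 95% confidence intervals for the 33 enzymes in the 3 comparisons, from limma with 5 libraries per group; coloured points are called. In M vs. C the widest interval is that of Eci1 (-2.67 to 0.45), which was listed at 0 in M mouse 2.

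The beta subunit of the electron transfer flavoprotein was called in all 3 comparisons. It is a pair of an alpha subunit (Etfa) and a beta subunit (Etfb) that takes electrons from the acyl-CoA dehydrogenases and passes them to ubiquinone through Etfdh. Etfb was at 11.3, 37.5, 10.6, 33.3 and 26.3 FPKM in C mice 1 to 5, at 3.78, 2.55, 2.15, 5.95 and 5.45 in the M mice and at 0.00, 0.572, 1.77, 0.459 and 0.747 in the AA mice. No group overlapped with another, and the AA mice were the lowest. Against the C group Etfb fell by 2.21 on the log2 scale in the M group (SE 0.41, adjusted p = 0.0257) and by 3.76 in the AA group (SE 0.39, adjusted p = 0.000133). It also fell by 1.55 from the M to the AA group (SE 0.35, adjusted p = 0.00948). The AA vs. M call was made again in every fit that left out 1 library (adjusted p up to 0.0246) and under 15 other settings it was lost under TPM alone (adjusted p up to 0.0757). Against this, the M vs. C call of Etfb was lost without any of C mice 2, 4 and 5 and M mice 1 to 3 (adjusted p up to 0.0872).

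Its partner Etfa did not go with it in the AA group. Etfa was at 14.1, 16.0, 13.5, 21.6 and 20.0 FPKM in the C mice, at 30.9, 8.92, 8.31, 6.60 and 4.16 in the M mice and at 11.2, 19.0, 16.2, 12.9 and 15.9 in the AA mice. AA mice 1 and 4 lay below all C mice and C mice 4 and 5 above all AA mice, with the rest overlapping. The difference of -0.16 in AA vs. C had an interval of -0.65 to 0.32. In M vs. C Etfa was at -0.79 (interval -1.71 to 0.14) and was not called. There all M mice but mouse 1 lay below all C mice, and M mouse 1 lay above them. The FPKM ratio of Etfb to Etfa, which no scaling of a library can move, was 0.787 to 2.34 in C mice, 0.122 to 1.31 in M mice and 0.00 to 0.109 in AA mice. Thus all AA mice lay below all others, while M mice 4 and 5 lay inside the C range. Etfdh was at 1.34 to 2.78 FPKM in the C mice, 0.568 to 1.89 in the M mice and 0.753 to 2.79 in the AA mice, and was not called in any comparison.

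Some properties of Etfb bear on how it was measured. With 1164 bases of joined exons (chr7:43444083-43457800, plus strand, GRCm38) it is the shortest of the 33, and 46.2% of its sampled 31-base words also occur in Gm45233, an overlapping gene on the same strand that was listed at 0 in all 15 libraries. The recovered reads behind Etfb were 421 to 1755 per C library, 31 to 203 per M library and 0 to 31 per AA library. Its transcript has 57.1% GC, that of Etfa 45.0%. The stretches before the start of both genes are shown because the partners parted in the AA mice: neither held the hexamer AGGTCA or its complement TGACCT, which would stand in capitals. Both are from RefSeq (GRCm38.p6), read along the strand of the gene and ending at the base before its start, chr9:55512244-55512493 for Etfa (minus strand) and chr7:43443822-43444071 for Etfb (plus strand).
Etfa: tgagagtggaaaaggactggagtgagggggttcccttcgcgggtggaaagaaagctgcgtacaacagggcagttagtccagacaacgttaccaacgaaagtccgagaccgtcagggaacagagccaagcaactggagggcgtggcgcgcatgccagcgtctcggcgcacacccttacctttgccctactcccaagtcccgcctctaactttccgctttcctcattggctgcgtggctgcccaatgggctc
Etfb: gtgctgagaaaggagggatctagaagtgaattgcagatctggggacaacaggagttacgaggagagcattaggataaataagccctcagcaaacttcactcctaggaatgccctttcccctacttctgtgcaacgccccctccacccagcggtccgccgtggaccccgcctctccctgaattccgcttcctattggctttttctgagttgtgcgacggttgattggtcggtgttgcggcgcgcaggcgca

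GC content moved with the comparisons over all genes, and the values are given for that reason. Protein-coding genes were sorted by transcript GC into 10 bins of like size, and the median log2 fold change in AA vs. C went from 0.18 in the lowest bin to -0.47 in the highest, and in M vs. C from -0.02 to -0.36. In the bin that holds Etfb, at 55.8 to 58.1% GC, the median was -0.35 in AA vs. C and 5% of genes were at or below -2.19, and Etfb was at -3.76. With the GC trend removed from each library, 4 enzymes were called in M vs. C, 2 in AA vs. M and 12 in AA vs. C, 1 of these higher, and the median of the enzymes was -0.88, 0.32 and -0.62. Of all genes, 319 of 21134, 2405 of 19781 and 3926 of 21878 were called in this setting, with medians of -0.15, 0.16 and 0.05.

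**Figure D4:**
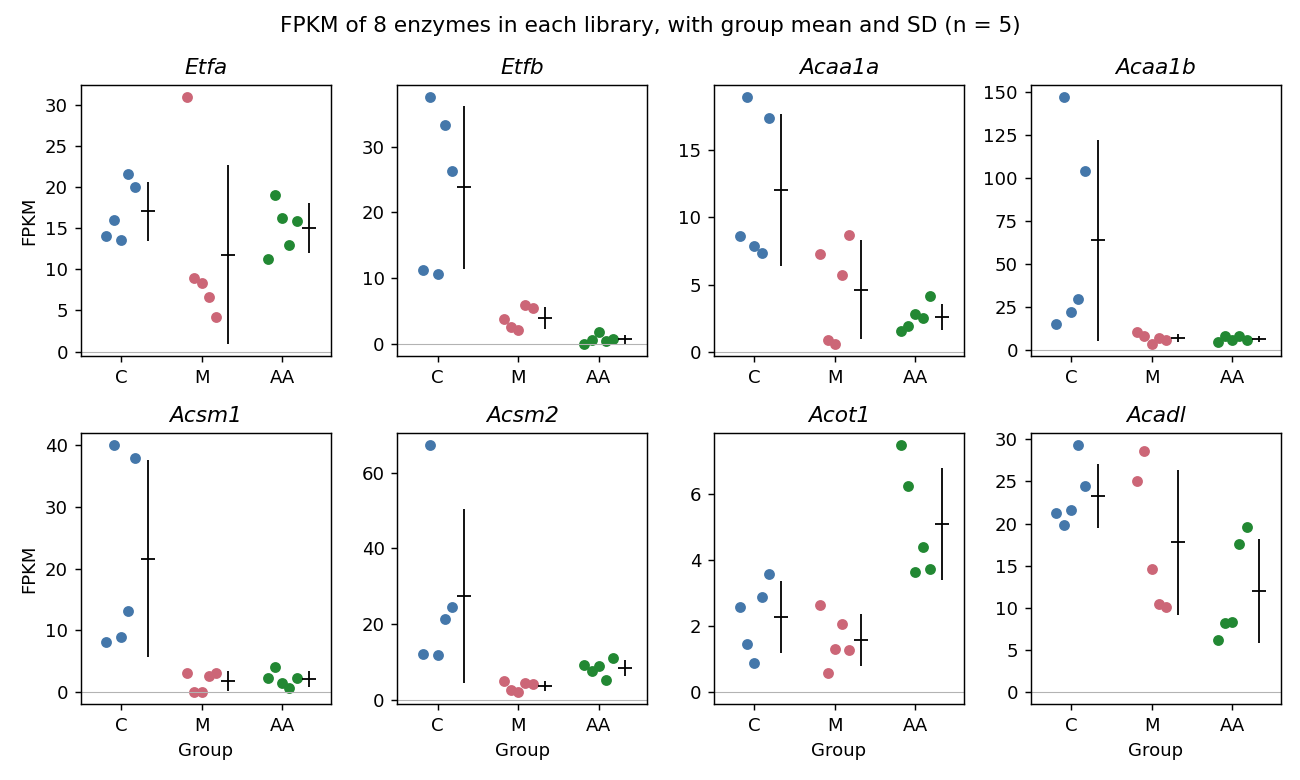
FPKM of 8 enzymes by group, 1 point per library, with group mean and SD (n = 5) beside the points. Etfb is lower in M than in C and lowest in AA while Etfa is at 11.2 to 19.0 in AA, Acaa1b and Acsm1 are low in both M and AA, and Acot1 is at 3.64 to 7.49 in AA, above every C and M library.

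Activation comes first in the pathway, and 2 of its 3 medium-chain enzymes, Acsm1 and Acsm2, fell in both M vs. C and AA vs. C. Acsm1, Acsm2 and Acsm3 are medium-chain acyl-CoA synthetases of the matrix that lie close to each other on chromosome 7. Acsm1 was at 8.07, 40, 8.85, 13.1 and 38.0 FPKM in the C mice, at 3.08, 0.00, 0.00, 2.64 and 3.14 in the M mice and at 2.29, 4.02, 1.44, 0.579 and 2.33 in the AA mice. Every C mouse was above every other mouse, and M and AA mice overlapped. It fell by 3.00 in M vs. C (SE 0.58, adjusted p = 0.0287) and by 2.64 in AA vs. C (SE 0.47, adjusted p = 0.0019). The first of these calls was lost without C mouse 2, 4 or 5 or M mouse 1, 2 or 3 (adjusted p up to 0.0940).

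Acsm2 was at 12.0, 67.3, 11.8, 21.2 and 24.4 FPKM in the C mice, at 4.90, 2.58, 2.01, 4.28 and 4.07 in the M mice and at 9.12, 7.50, 8.99, 5.14 and 11.1 in the AA mice. The groups did not overlap, with AA between M and C, and Acsm2 was the enzyme of the 33 that lay in this order without overlap. It fell by 2.38 in M vs. C (SE 0.44, adjusted p = 0.0257), rose by 1.05 in AA vs. M (SE 0.31, adjusted p = 0.0343) and was 1.33 lower in AA than in C on the log2 scale (log2 fold change -1.33, SE 0.41, adjusted p = 0.0259). The rise was weakly held: it was called in 4 of 10 fits with 1 library left out (log2 fold change 0.91 to 1.19, adjusted p up to 0.0908, lost without M mouse 2 or 3 or AA mouse 1, 2, 3 or 5) and under 5 of 15 other settings. The fall in M vs. C was lost without C mouse 4 or 5 or M mouse 1, 2 or 3 (adjusted p up to 0.0872), and that in AA vs. C without C mouse 2 or 5 or AA mouse 4 (log2 fold change up to -0.94, adjusted p up to 0.0595).

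Acsm3 was at 3.39, 2.05, 1.71, 7.82 and 4.98 FPKM in the C mice, at 5.20, 2.46, 1.52, 1.46 and 0.175 in the M mice and at 0.774, 0.517, 1.34, 1.52 and 2.49 in the AA mice. The groups overlapped, and the call in AA vs. C (log2 fold change -1.02, SE 0.34, adjusted p = 0.0354) was kept in 3 of 10 fits with 1 library left out (lost without C mouse 1, 4 or 5 or AA mouse 1, 2, 3 or 4, log2 fold change up to -0.78). Of its sampled words 37.5% occur in Eri2, an overlapping gene on the other strand at 0.142 to 0.875 FPKM. Acsl1, which activates long chains, was at 1.57 to 4.03 FPKM in C mice, 0.351 to 1.37 in M mice and 0.853 to 1.93 in AA mice. Its M mice lay below all C mice, yet at -1.11 (SE 0.29, adjusted p = 0.0784) it was not called, and in AA vs. C it was at -0.66 (adjusted p = 0.0406), below the size needed.

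The carnitine shuttle carries long-chain acyl groups over the mitochondrial membranes. Cpt2, which turns the carnitine ester back into acyl-CoA on the matrix side, was at 5.46, 20.0, 5.97, 18.8 and 17.1 FPKM in the C mice, at 3.93, 2.48, 3.57, 4.78 and 2.40 in the M mice and at 6.39, 3.25, 3.87, 4.82 and 1.56 in the AA mice. All M mice were below all C mice, and AA mouse 1 reached into the C range. It fell by 1.44 in AA vs. C (SE 0.40, adjusted p = 0.0162), and in M vs. C it was at -1.56 (SE 0.39, adjusted p = 0.0748), with an interval of -2.40 to -0.71.

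Crat, the carnitine acetyltransferase of mitochondria and peroxisomes, was at 3.83, 11.2, 4.55, 5.98 and 9.98 FPKM in the C mice, at 2.64, 1.94, 0.478, 3.28 and 2.76 in the M mice and at 1.64, 6.03, 1.84, 2.27 and 2.93 in the AA mice. AA mouse 2 lay inside the C range, and the other AA and all M mice lay below it. Its fall of 1.04 in AA vs. C (SE 0.34, adjusted p = 0.0305) was lost without C mouse 2 or 5 or AA mouse 1, 3 or 4 (log2 fold change up to -0.87, adjusted p up to 0.0777).

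Cpt1a makes the carnitine ester and is commonly regarded as the rate-limiting step of the pathway. It was at 5.24, 13.4, 5.63, 6.25 and 9.01 FPKM in the C mice, at 1.64, 7.83, 4.56, 3.07 and 2.90 in the M mice and at 3.91, 6.39, 5.35, 3.28 and 3.87 in the AA mice. M and AA mice overlapped with C mice, and no comparison was called, at -0.88 (interval -1.67 to -0.09, adjusted p = 0.258) in M vs. C, 0.24 (-0.51 to 1.00) in AA vs. M and -0.63 (-1.22 to -0.05, adjusted p = 0.0848) in AA vs. C. Slc25a20, the carrier of the inner membrane, was at 3.00 to 4.83 FPKM in the C mice, 0.00 to 2.81 in the M mice and 2.56 to 4.04 in the AA mice. Crot, the octanoyltransferase of peroxisomes, was at 5.86 to 18.1 FPKM in the C mice, 0.386 to 7.33 in the M mice and 6.41 to 9.26 in the AA mice. Neither was called, although all M mice were below all C mice for Slc25a20 and Crot in AA vs. M was at 1.17 (interval 0.29 to 2.05, adjusted p = 0.0628).

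The acyl-CoA dehydrogenases open each cycle of the mitochondrial spiral, and 3 of the 4 were called in AA vs. C. Acadl, for long chains, was at 21.2, 19.8, 21.6, 29.3 and 24.5 FPKM in the C mice, at 25.1, 28.6, 14.6, 10.4 and 10.1 in the M mice and at 6.12, 8.13, 8.34, 17.6 and 19.6 in the AA mice. All AA mice were below all C mice, with AA mouse 5 just under C mouse 2, and M mice 1 and 2 were inside the C range. Acadl fell by 1.02 in AA vs. C (SE 0.31, adjusted p = 0.0223), a call lost without C mouse 4 or AA mouse 1, 2 or 3 (log2 fold change up to -0.84).

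Acadvl, for very long chains, was at 3.23, 7.36, 2.33, 5.14 and 7.49 FPKM in the C mice, at 0.770, 1.21, 1.92, 2.36 and 1.94 in the M mice and at 0.957, 1.90, 2.08, 2.01 and 1.90 in the AA mice. AA mice lay below all C mice, and M mouse 4 was level with C mouse 3. It fell by 1.07 in AA vs. C (SE 0.29, adjusted p = 0.0135), lost without C mouse 2 or 5 or AA mouse 1 (log2 fold change up to -0.92), and was at -1.15 in M vs. C (adjusted p = 0.113). Of its sampled words 32.6% occur in Dvl2, an overlapping gene on the other strand at 0.00 to 0.845 FPKM, and where strand was not counted these reads cannot be told apart.

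Acadm, for medium chains, was at 11.3, 21.4, 11.0, 20.3 and 21.7 FPKM in the C mice, at 18.7, 4.18, 6.51, 6.20 and 7.18 in the M mice and at 6.42, 3.17, 9.03, 9.97 and 12.7 in the AA mice. M mouse 1 and AA mouse 5 were inside the C range. The fall of 1.02 in AA vs. C (SE 0.34, adjusted p = 0.0335) was lost without C mouse 2, 4 or 5 or AA mouse 1 or 2 (log2 fold change up to -0.76, adjusted p up to 0.0800). Acads, for short chains, was at 3.26 to 7.89 FPKM in C mice, 1.69 to 4.87 in M mice and 2.01 to 4.85 in AA mice and was not called.

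None of the genes of the later steps of the spiral was called in any comparison. Echs1, the short-chain enoyl-CoA hydratase, was at 1.48 to 2.86 FPKM in the C mice, 0.874 to 3.68 in the M mice and 2.16 to 3.37 in the AA mice, and was the enzyme above 0 in M vs. C (0.01, interval -0.64 to 0.65). Hadh, the short-chain hydroxyacyl-CoA dehydrogenase, was at 2.91 to 7.96, 1.91 to 4.31 and 4.62 to 7.62 FPKM in C, M and AA mice, so that all AA mice were above all M mice (0.75, interval 0.14 to 1.36, adjusted p = 0.0823). Acaa2, the thiolase that closes the cycle, was at 13.0 to 22.1 FPKM in C mice, 3.49 to 38.4 in M mice and 11.0 to 21.8 in AA mice, with a difference of 0.01 in AA vs. C (interval -0.53 to 0.55).

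Hadha and Hadhb encode the alpha and beta subunits of the trifunctional protein, which carries out the last steps for long chains. Hadha was at 2.15 to 3.73 FPKM in the C mice, 1.69 to 2.96 in the M mice and 1.12 to 2.20 in the AA mice, and Hadhb at 1.48 to 2.82, 1.16 to 2.42 and 1.44 to 4.10. Their FPKM ratio was 0.926 to 2.45 in C mice, 0.839 to 2.55 in M mice and 0.314 to 1.16 in AA mice, which overlapped, and 19.2% of the sampled words of Hadhb also occur in Gm13910, a pseudogene at 0.00 to 7.24 FPKM. In AA vs. C Hadha was at -0.56 (adjusted p = 0.0477) and Hadhb at 0.16 (interval -0.36 to 0.68), and neither reached the size needed for a call. Both genes start back to back with 85 bases between their annotated ends (chr5:30155163-30155247, GRCm38.p6, plus strand, toward Hadhb), shown because the pair shares it; the stretch is 69.4% GC and holds no hexamer.
Hadha and Hadhb: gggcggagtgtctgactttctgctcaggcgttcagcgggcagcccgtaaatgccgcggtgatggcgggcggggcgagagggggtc

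Unsaturated chains need isomerases and a reductase to enter the spiral. Eci1, the mitochondrial enoyl-CoA isomerase, was at 15.6, 20.2, 17.1, 22.7 and 25.6 FPKM in the C mice, at 28.5, 0.00, 20.6, 9.72 and 11.7 in the M mice and at 4.11, 5.49, 7.76, 14.4 and 6.43 in the AA mice. All AA mice were below all C mice, and the M mice spread over the whole range, with M mouse 2 at 0 and M mouse 1 the highest of all. Eci1 fell by 1.39 in AA vs. C (SE 0.29, adjusted p = 0.00402).

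Eci2, the isomerase of peroxisomes and mitochondria, was at 2.50, 12.1, 2.92, 6.75 and 10.2 FPKM in the C mice, at 2.52, 2.14, 1.74, 3.85 and 3.76 in the M mice and at 1.70, 1.18, 1.89, 1.96 and 1.55 in the AA mice. AA mice lay below all C mice and M mice overlapped with them. Eci2 fell by 1.38 in AA vs. C (SE 0.36, adjusted p = 0.011). Decr1, the dienoyl-CoA reductase, was at 3.68 to 8.56 FPKM in C mice, 2.17 to 9.44 in M mice and 3.60 to 4.95 in AA mice, and was not called in any comparison.

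In peroxisomal oxidation both thiolase genes were called. In mice the peroxisomal 3-ketoacyl-CoA thiolase is encoded by a pair of like genes, Acaa1a and Acaa1b. Acaa1b was at 15.3, 147, 22.3, 29.8 and 104 FPKM in the C mice, at 10.6, 7.90, 3.53, 6.71 and 5.93 in the M mice and at 4.90, 8.31, 5.60, 8.20 and 5.51 in the AA mice. Every C mouse was above every other mouse, C mice 2 and 5 by far, and M and AA mice overlapped. It fell by 2.57 in M vs. C (SE 0.57, adjusted p = 0.0462) and by 2.61 in AA vs. C (SE 0.54, adjusted p = 0.00385), and AA vs. M was at -0.04 (interval -0.73 to 0.65). The M vs. C call was kept in 2 of 10 fits with 1 library left out, those without C mouse 1 or M mouse 5 (adjusted p up to 0.134 in the others).

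Acaa1a was at 8.62, 18.9, 7.91, 7.37 and 17.4 FPKM in the C mice, at 7.26, 0.954, 0.634, 5.72 and 8.67 in the M mice and at 1.58, 1.98, 2.84, 2.54 and 4.18 in the AA mice. AA mice lay below all C mice, while M mouse 5 was inside the C range and M mice 2 and 3 were near 1 FPKM. Acaa1a fell by 1.78 in AA vs. C (SE 0.31, adjusted p = 0.0015) and was at -1.45 in M vs. C (interval -2.59 to -0.31, adjusted p = 0.2). Of the sampled words of Acaa1b 38.8% occur in Acaa1a and of those of Acaa1a 14.5% in Acaa1b, so that reads could be split or lost between them and the level of each is uncertain. Acaa1b held 6.99 to 25.4% of the summed FPKM of the 33 enzymes in C mice, 2.69 to 6.74% in M mice and 3.18 to 4.98% in AA mice.

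Ehhadh, the bifunctional hydratase and dehydrogenase, was at 5.58, 19.1, 3.30, 13.9 and 14.4 FPKM in the C mice, at 9.08, 0.257, 4.99, 2.83 and 2.62 in the M mice and at 6.11, 7.44, 3.58, 7.74 and 5.69 in the AA mice. The groups overlapped, and no comparison was called, with -1.39 in M vs. C (interval -2.60 to -0.18, adjusted p = 0.244) and 0.79 for AA vs. M (-0.22 to 1.79). Abcd3, a transporter of the peroxisomal membrane, was at 2.86 to 7.29 FPKM in the C mice, 1.68 to 3.18 in the M mice and 2.31 to 5.28 in the AA mice. Hsd17b4, the D-bifunctional protein, was at 3.38 to 5.62, 2.38 to 7.54 and 2.21 to 4.03. Neither was called, and Hsd17b4 differed by -0.18 in M vs. C (interval -0.91 to 0.55).

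Acot1 and Pdk4 stand beside the spiral. Acot1, a cytosolic thioesterase that frees fatty acids from coenzyme A, was at 2.59, 1.44, 0.872, 2.88 and 3.58 FPKM in the C mice, at 2.64, 0.586, 1.30, 2.07 and 1.28 in the M mice and at 7.49, 6.25, 3.64, 4.39 and 3.72 in the AA mice. Every AA mouse was above every other mouse, and AA mice 3 and 5 were just above C mouse 5. Acot1 rose by 1.26 in AA vs. M (SE 0.32, adjusted p = 0.0167), kept with any 1 library left out (adjusted p up to 0.0433) and lost under 5 of 15 other settings (adjusted p up to 0.126). In AA vs. C it was at 0.93 (SE 0.29, adjusted p = 0.0252), just under the size needed. Acot1 lies in a cluster on chromosome 12 with Acot2, which holds 14.3% of its sampled words, and with Acot4, which also rose in AA vs. M (log2 fold change 1.79, SE 0.33, adjusted p = 0.00457) and in AA vs. C (1.05, SE 0.25, adjusted p = 0.00693). Acot4 was at 0.672 to 2.29 FPKM in the C mice, 0.00 to 1.70 in the M mice and 3.03 to 6.34 in the AA mice, and was looked at after its values were seen. The cluster neighbours Acot2 and Acot3 were not called in any comparison, at 1.06 (adjusted p = 0.0919) and -0.23 in AA vs. M and at 0.23 and -0.84 in AA vs. C.

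Pdk4, the kinase that turns off pyruvate dehydrogenase when fat is burned, was at 0.638, 0.907, 0.922, 7.99 and 2.70 FPKM in the C mice, at 3.58, 0.00, 1.93, 1.86 and 0.402 in the M mice and at 0.418, 0.316, 0.00, 1.66 and 0.849 in the AA mice. C mouse 4 stood far above the rest, the groups overlapped, and no comparison was called (-0.89 in AA vs. C, interval -1.85 to 0.07, adjusted p = 0.133).

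The ketone body enzymes were not called. Acat1, the acetoacetyl-CoA thiolase of mitochondria, was at 12.8, 16.3, 9.15, 19.9 and 18.7 FPKM in the C mice, at 16.8, 8.20, 9.25, 6.31 and 2.70 in the M mice and at 11.2, 9.12, 14.9, 6.88 and 11.9 in the AA mice, and the groups overlapped. Bdh1, which interconverts acetoacetate and beta-hydroxybutyrate, was at 3.10, 4.08, 1.51, 3.85 and 5.60 FPKM in the C mice, at 1.15, 0.00, 0.00, 1.77 and 0.799 in the M mice and at 1.45, 1.23, 3.12, 0.95 and 5.49 in the AA mice. M mouse 4 was above C mouse 3 and the other M mice were below all C mice, and Bdh1 in M vs. C was at -1.46 (SE 0.37, adjusted p = 0.0772).

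Mitochondrial and peroxisomal enzymes were compared within each library, where a rescaling of the library hardly enters. The mean log2(FPKM + 1) of the 23 mitochondrial enzymes was 2.59 to 3.43 in C mice, 1.77 to 2.64 in M mice and 2.10 to 2.37 in AA mice, and that of the 6 peroxisomal enzymes was 2.86 to 4.32, 1.36 to 2.99 and 2.38 to 2.62. Mitochondrial minus peroxisomal was -0.16, -1.01, -0.28, 0.02 and -0.64 in the C mice, -0.35, 0.41, 0.09, -0.05 and -0.52 in the M mice and -0.36, -0.15, -0.07, -0.28 and -0.25 in the AA mice. The 3 groups overlapped, and their means of -0.41 ± 0.41, -0.08 ± 0.37 and -0.22 ± 0.12 (SD, n = 5) differed by less than the spread in the C group. In fitted changes, the median was -0.79 for mitochondrial and -1.42 for peroxisomal enzymes in M vs. C. The same medians were 0.22 and 0.20 for AA vs. M, and -0.56 and -0.51 for AA vs. C. The summed FPKM, in which high genes weigh more, gave a wider gap, 0.74 in M vs. C (0.33 from the means) and 0.58 for AA vs. C (0.19 from the means). The part of Acaa1b, with its high C values, in this gap was not tested.

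**Figure D5:**
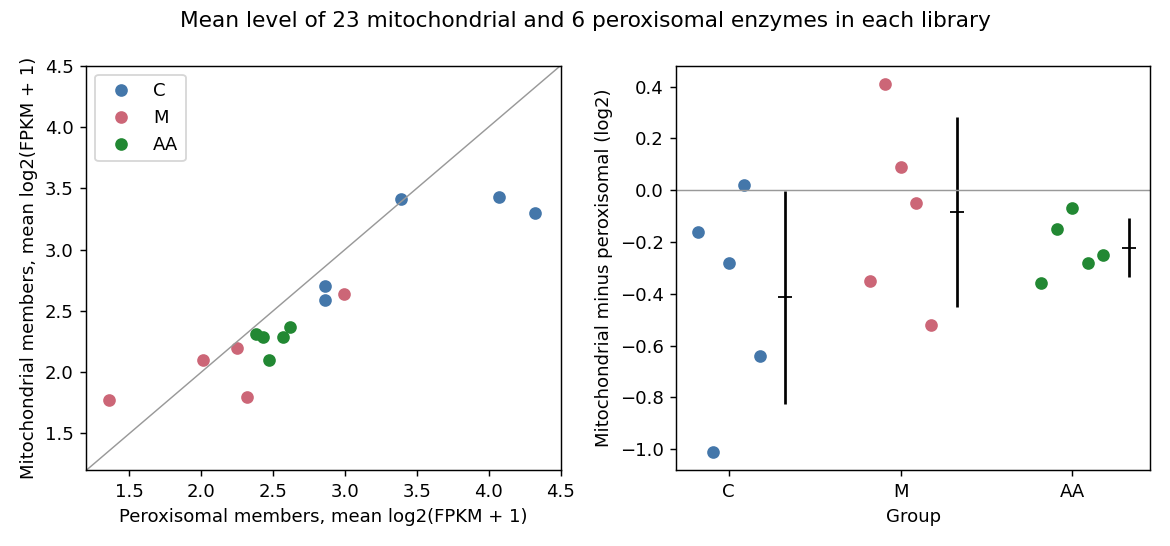
Left, mean log2(FPKM + 1) of 23 mitochondrial (vertical) against 6 peroxisomal enzymes (horizontal), 1 point per library, with the line of equality. Right, the difference by group with mean and SD (n = 5); the groups overlap, and C mouse 2 is the lowest at -1.01.

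Other genes of the pathway were taken from a list. Of 60 listed genes 55 were tested in M vs. C, where 8 were called lower and 0 higher, with a median of -0.82, beside 1.11% and 0.269% of all genes. In AA vs. M 1 of 55 was called, Acot4, beside 12.8% of all genes, with a median of 0.22. In AA vs. C 19 of 56 were called lower and 2 higher, beside 9.61% and 10.2% of all genes, with a median of -0.63. Slc27a2, which imports and activates very long-chain fatty acids, was at 120 to 707 FPKM in the C mice, at 1.29 to 4.77 in M mice 1 to 3, at 72.5 and 71.1 in M mice 4 and 5 and at 6.41 to 13.2 in the AA mice. It fell by 4.37 in M vs. C (SE 0.93, adjusted p = 0.0404) and by 4.59 in AA vs. C (SE 0.45, adjusted p = 0.00011). Among the other genes called lower in both were Acsm5, a relative of Acsm1 (-2.93 and -2.97), Cyp4b1 and Cyp4a31, fatty acid hydroxylases (-3.26 and -2.32, and -3.14 and -2.22), and Pdk2, a relative of Pdk4 (-2.47 and -1.50). Among those called in AA vs. C and not in M vs. C were Angptl4 (-2.19), Slc22a5, the carnitine importer (-2.18), and Cyp4a10 (-2.12), which were at -1.67, -1.88 and -2.86 in M vs. C, and whether the comparisons differ was not tested.

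Among 16 regulators, 0 were called by limma in M vs. C, where 7 had an unadjusted p under 0.05 and 1.38% of all genes were called. Ppara itself was low in every group, at 0.283 to 1.15, 0.00 to 1.48 and 0.146 to 1.01 FPKM in C, M and AA mice, with a difference of -0.03 in M vs. C (interval -0.63 to 0.58). Ppargc1a, a coactivator of mitochondrial genes, was at 0.649 to 2.77, 0.268 to 1.62 and 0.462 to 2.54 FPKM and was not called. In AA vs. M 2 of the 16 regulators were called higher, a share near the 11.7% of all genes: Hnf4a, a nuclear receptor of the proximal tubule (1.79, SE 0.47, adjusted p = 0.0195), and Ppargc1b (1.29, SE 0.37, adjusted p = 0.0266), both named after their values were seen. Hnf4a was at 8.51 to 31 FPKM in the C mice, 0.912 to 9.37 in the M mice and 11.7 to 18.8 in the AA mice, so that AA mice were above all M mice. In AA vs. C 4 of the 16 regulators were called lower, beside 9.61% of all genes, with Nr1h4, the bile acid receptor, at -2.65 (SE 0.49, adjusted p = 0.00231) and Esrra, a partner of Ppargc1a, at -2.41 (SE 0.46, adjusted p = 0.00273), and Klf15 and Sirt3.

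The promoters were searched for the hexamer AGGTCA, which PPARA, HNF4A and other nuclear receptors bind, on both strands, and for its direct repeat with 1 base between. RefSeq windows from 250 bases before to 50 after the start were at hand for 28 of the 33 genes (32 windows). A hexamer was in 5 windows (15.6%), those of Acadm, Acadvl, Acsm1, Cpt1a and Echs1, against 16.3% of all 32851 windows, and the repeat was in none, against 0.0396% of all windows. The share is thus near that of all genes, and other spellings of the site were not searched. Of the 5, Acadm and Acadvl are shown as dehydrogenases called in AA vs. C, with the hexamer in capitals, along the strand of the gene and ending before its start (chr3:153944644-153944893 and chr11:70015429-70015678, both minus strand, GRCm38.p6). It begins 249 bases before the start of Acadm and 87 before that of Acadvl.
Acadm: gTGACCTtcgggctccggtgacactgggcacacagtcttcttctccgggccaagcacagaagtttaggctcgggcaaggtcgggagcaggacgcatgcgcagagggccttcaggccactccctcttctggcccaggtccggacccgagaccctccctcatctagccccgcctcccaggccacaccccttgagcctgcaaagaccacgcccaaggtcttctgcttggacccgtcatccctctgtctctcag
Acadvl: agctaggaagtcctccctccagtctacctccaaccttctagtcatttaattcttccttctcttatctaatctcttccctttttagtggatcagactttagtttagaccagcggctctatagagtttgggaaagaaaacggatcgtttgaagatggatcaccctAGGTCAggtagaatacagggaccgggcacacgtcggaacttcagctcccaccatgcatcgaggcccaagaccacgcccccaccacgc

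Marker lists of kidney cell types were set beside the enzymes. Of the 15 proximal tubule markers 10 were called lower in M vs. C and 11 when AA was set against C, and 0 were called by limma in AA vs. M, where 4 had an unadjusted p under 0.05 and the median was 0.48. Their leading marker Kap was at 2779 to 10538 FPKM in the C mice, 81.2 to 500 in the M mice and 126 to 486 in the AA mice. Macrophage markers (10) summed to 27.7 to 272 FPKM in C mice, 248 to 526 in M mice and 171 to 259 in AA mice, and fibroblast markers (8) to 66.7 to 152, 135 to 448 and 290 to 490. Adipocyte markers (8), which bear on enzymes that fat also uses, summed to 1.94 to 103, 3.74 to 8.77 and 7.80 to 42.4, with Cfd at up to 71.4 FPKM in the C mice. Collecting duct markers (8) summed to 49.8 to 494, 8.81 to 29.3 and 15.8 to 27.6, distal tubule markers (8) to 67.9 to 217, 30.1 to 102 and 47.0 to 68.1, and adrenal cortex markers (6) to no more than 2.56 FPKM in any library. Lymphocyte markers (8) reached 19.9 FPKM in C mice, 7.18 in M mice and 4.13 in AA mice, endothelial markers (6) 28.2, 16.9 and 17.8, and podocyte markers (5) 16.2, 23.7 and 14.6. The part of these cells in the enzyme values was not tested.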

How the data were processed

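RNA of 15 kidneys (5 each of C, M and AA) was analysed. Per the labels and the methods, reads were trimmed with fastp, aligned to mm10 with HISAT2 2.0.5 and counted with featureCounts 1.5.0-p3, and the authors deposited FPKM per gene, with no further scaling. The authors tested for differences with DESeq2; count data were not used here. Replicates are separate mice. Identifiers were matched to GENCODE M21 (GRCm38), which lacked 123 of 54532. Reads behind an FPKM value were recovered from the steps of low values and joined-exon lengths. Per library 97.1 to 98.6% of low values were whole (tolerance 0.02), and 13646686 to 28876337 reads were found, where a factor of 2 is unsettled. They cover counting error only.

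limma 3.58.1 in R 4.3.3 (lmFit, eBayes with trend) was fitted to log2(FPKM + 1), on the 10 libraries compared and genes above 0 in at least 5 of them, with Benjamini-Hochberg adjustment over all genes tested. It was tested on simulated data. Shared sequence was measured on 1 in 8 of the 31-base words of a gene's transcripts. The thresholds are those of the study's methods. The members, lists and tests were chosen with earlier results of these data known. Named in full were enzymes called in any comparison, the highest of each role in the C group, and Acaa1a, Acaa1b, Cpt1a, Ehhadh, Pdk4 and Bdh1, and of other pathway genes the 10 largest called ones with Ppara and Ppargc1a (some genes that the rule names are not reported here). Alternatives were other pseudocounts (0.1), filters, scalings (TPM, fragments outside the mitochondrial genome, quantiles, median centring), all 15 libraries in one fit, library weights, a replicate block, voom on recovered reads, M mice 1 to 3 or 4 and 5 alone, and each library left out. Added after seeing the data were the removal of a GC trend and fits without C mice 1 and 3 or M mice 2 and 3. Mouse numbers did not pair the libraries.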

Additional observations from a re-analysis of the deposited data

Results flagged for a closer look

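In 102 groups of 5 values (33 enzymes and the mitochondrial minus peroxisomal difference in 3 groups), the gap from the most extreme library to its neighbour was compared with the range of the group on the log2(FPKM + 1) scale, and a share above Dixon's critical value of 0.71 was marked. Chance marks about 1 in 20 groups, and 4 of 102 were marked. Slc25a20, the acylcarnitine carrier, was at 0.00 FPKM in M mouse 2, against 2.33 to 2.81 in the other M mice, a gap of 0.901 of the range. Acadvl was at 0.957 FPKM in AA mouse 1, against 1.90 to 2.08 in the other AA mice. Acaa2 was at 11.0 FPKM in AA mouse 5, against 18.2 to 21.8 in the other AA mice. Hsd17b4 was at 2.21 FPKM in AA mouse 2, against 3.57 to 4.03 in the other AA mice. In each of the 4 the library was the lowest of its group.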

How the results depend on the processing

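The counts for M vs. C depended on the processing more than those for AA vs. C. Against 4 of the 33 enzymes called in M vs. C, 0 of the 33 were called when genes above 0 in any library were tested (limma), 7 with a mean FPKM of at least 1, 26 under TPM, 10 with all 15 libraries in one fit, 1 with voom, 0 without M mice 2 and 3, 0 with M mice 4 and 5 alone and 10 with M mice 1 to 3 alone. The enzymes with an unadjusted p under 0.05 were 19, 13 and 21 where 0 were called. In AA vs. M the 3 calls became 0 under TPM (unadjusted 2) and 1 without M mice 2 and 3, and in AA vs. C the 13 calls became 29 under TPM. Under TPM 1609 of all genes were called in M vs. C, 422 in AA vs. M and 6785 in AA vs. C. For the filters and the subsets of M mice the share of all genes called is not given here. With 1 library left out the counts ran from 0 to 5, from 2 to 4 and from 8 to 14, the last lowest without AA mouse 1. The median over the enzymes moved to -1.80 under TPM and -0.52 with centring in M vs. C, to -0.27 with centring in AA vs. M and to -1.57 under TPM in AA vs. C. Acaa2 turned to -1.06 in AA vs. C under TPM. TPM moved the median of all genes to -0.58, 0.12 and -0.39, and centring to 0.24, -0.35 and -0.06. The share of calls that were higher went from 19.6% to 38.9% with centring and 1.93% under TPM in M vs. C, from 91.6% to 69.5% with quantiles and 43.1% with centring in AA vs. M, and from 51.6% to 12.7% under TPM in AA vs. C. The causes were not tested.

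Of the other pathway genes and regulators together, 8, 3 and 25 were called. In M vs. C this became 5 with a pseudocount of 0.1, 1 with genes above 0 in any library, 37 under TPM, 17 with all 15 libraries, 4 with library weights, 0 without M mice 2 and 3 (unadjusted 24), 0 with M mice 4 and 5 (unadjusted 24) and 26 with M mice 1 to 3. In AA vs. M it became 0 under TPM (unadjusted 5), 5 with all 15 libraries, 1 without M mice 2 and 3, 5 with M mice 4 and 5 and 12 with M mice 1 to 3, and in AA vs. C 42 under TPM. With 1 library left out the counts ran from 0 to 12, from 1 to 5 and from 18 to 29. The mitochondrial minus peroxisomal difference of 0.33 in M vs. C and 0.19 for AA vs. C became 0.74 and 0.58 as a ratio of sums, and ran from 0.18 to 0.44, from -0.25 to -0.02 in AA vs. M and from 0.05 to 0.30 with 1 library left out.

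Mouse numbers did not pair the libraries: deviations of same-numbered mice correlated at -0.127 to 0.218. With a replicate block 3, 2 and 13 enzymes and 5, 2 and 24 other genes were called. With 5 libraries a group and 31 or fewer recovered reads of Etfb in each AA library, low enzymes are measured coarsely.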
